A study of Mus musculus with 18 samples.

Results

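The untreated Tet2 KO library was set against the untreated wild type library of mouse embryonic stem cells, locus by locus, across the gene families that the cells transcribe. Members were the loci with at least 1 RPKM (a read count scaled to transcript length and library size) in either of the 2 libraries, 12553 of the 14864 loci listed. The series holds 18 samples of RNA methylation and RNA turnover assays. Both genotypes were cultured with LIF on mouse embryonic fibroblast feeder cells, and the untreated libraries were collected at 0 h, without the 5 µg/ml of actinomycin D that the 3 h and 6 h libraries received. Each genotype had 1 library at each time, so the comparison has no replicate check, and every value below is a description without a p-value. The labels do not give the strain, the number of clones behind the Tet2 KO cells or the part of Tet2 that was deleted.

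Tet2 is a dioxygenase that oxidises 5-methylcytosine, in DNA as a step towards demethylation and also in RNA. Embryonic stem cells keep their identity through the factors Pou5f1, Nanog and Esrrb together with LIF signalling, and they divide fast, so they make large amounts of histone and ribosomal protein mRNA. DNA methylation silences one allele of imprinted genes and many germline genes.

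The RNA of the targeted gene did not separate the genotypes. Tet2 stood at 23.7 RPKM in wild type and 23 in the library labelled Tet2 KO, and a level over the whole gene also counts exons that a deletion leaves in place. Tet3, a second enzyme of the family, was under 1 RPKM in both libraries (0.80 and 0.74). Directions below rest on the labels. The embryonic stem cell markers matched the labelled cell type, with a summed level of 968 RPKM in wild type and 997 in Tet2 KO over the 8 markers listed. Pou5f1, the central pluripotency factor, was at 415 and 528 RPKM, Nanog at 71.0 and 72.0, and Esrrb at 45.5 and 37.6. Of 12 fibroblast markers, 9 were above the filter, summing to 176 and 169 RPKM. How much of this RNA came from the feeder cells was not tested. In bulk RNA of this kind, fewer cells of a type and less RNA per cell cannot be told apart.

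A locus was called when the log2(RPKM + 1) values differed by at least 1, which is 2-fold on the scale of RPKM + 1 and understates the fold of low loci. On that scale 489 loci were at least 2-fold higher in Tet2 KO, 3.9% of those kept, and 739 were at least 2-fold lower, 5.89%. The other 11325 (90.2%) lay within 2-fold. The median difference over all kept loci was 0.01, and the 5th and 95th percentiles were -1.07 and 0.91. At 4-fold there were 42 higher and 110 lower loci, and at 8-fold 6 and 32. Scaling the Tet2 KO library on its ribosomal proteins and respiratory chain subunits moved the median of all loci to 0.25 and turned the split round, with 926 higher and 459 lower. Protein-coding loci, 9111 in number, held 273 higher and 480 lower loci with a median of 0.01.

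**Figure D1:**
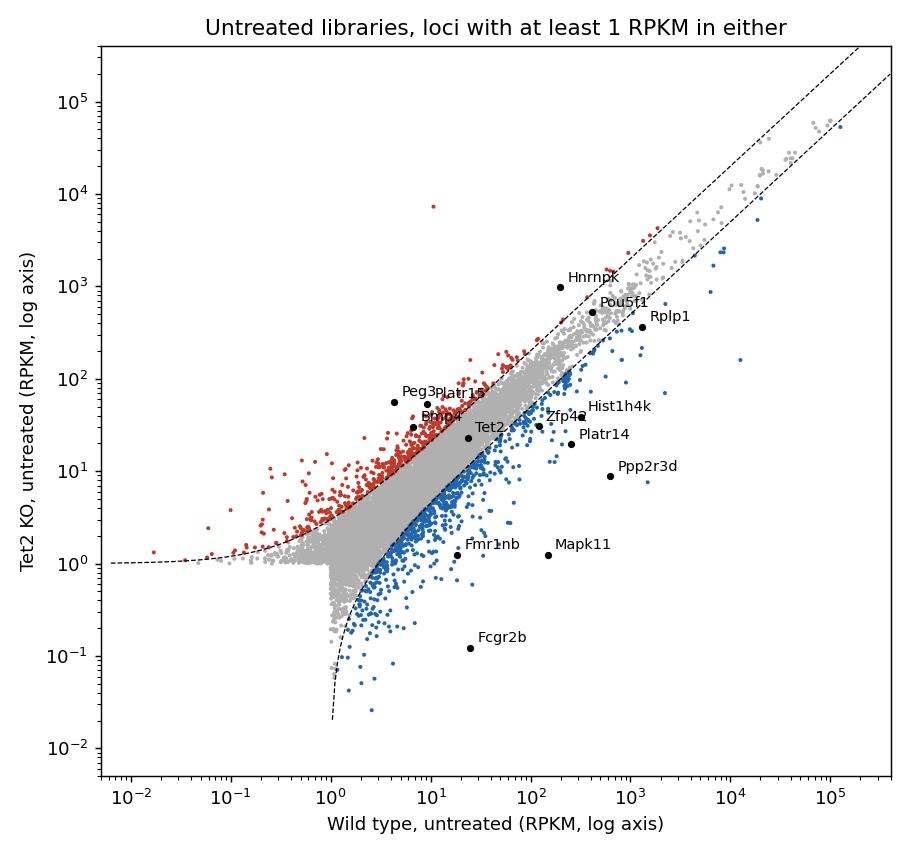
RPKM of each kept locus in the untreated wild type library (x, log axis) and the untreated Tet2 KO library (y, log axis). Dashed lines mark 2-fold on the RPKM + 1 scale, with the 489 higher loci in red, the 739 lower loci in blue and the genes named in the text in black.

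The loci that stood highest in Tet2 KO included genes of imprinting, meiosis, RNA binding and signalling. Peg3, an imprinted gene expressed from the paternal allele that encodes a zinc finger protein, was at 4.31 RPKM in wild type and 56.5 in Tet2 KO, a log2 difference of 3.44 that was the largest among named genes. Hnrnpk, an RNA-binding protein of the nucleus, was at 199 and 981 RPKM (2.29). Its wild type level at 3 h and 6 h was 580 and 483 RPKM, so the untreated wild type library was the low one among the 6. Bmp4, a secreted signal that acts with LIF, stood at 6.68 and 30.4 RPKM (2.03). Slc25a22, a mitochondrial glutamate carrier, was at 2.17 and 22.9 RPKM (2.91). Stag3, a meiotic cohesin subunit, was at 3.18 and 17.4 RPKM (2.14), and Prdm9, the methyltransferase that places meiotic recombination sites, at 1.41 and 10.5 (2.26). Prdm9 was lower in Tet2 KO at 3 h (0.76 and 0.08 RPKM) and at 6 h (1.06 and 0.73). The 20 highest named genes also held the myosin Myo1f (0.70 and 12.6 RPKM), the olfactory receptor Olfr814 (0.51 and 13.1), the class I gene H2-T3 (0.35 and 9.25) and the N-myc downstream-regulated gene Ndrg2 (6.54 and 37.4). At 3 h the log2 differences of Myo1f, Olfr814, H2-T3 and Ndrg2 were 0.22, 0.002, -1.45 and -0.32. At 6 h they were 0.29, 0.25, 0.01 and 1.26.

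Of the 20 named genes lowest in Tet2 KO, 15 had the untreated wild type library at least 2-fold above each of the 5 other libraries, and 12 at least 4-fold. Among the 20 highest the untreated Tet2 KO library stood so far above the others at 10 and 4 genes. Mapk11, a p38 kinase, was at 148 RPKM in wild type and 1.25 in Tet2 KO, a log2 difference of -6.05, and between 0.55 and 1.39 RPKM in the 4 actinomycin D libraries. Ppp2r3d, a regulatory subunit of protein phosphatase 2A, was at 625 and 8.79 RPKM (-6.00), with at most 7.38 at the later times. Zfp202 was at 48.3 and 1.61 RPKM (-4.24), and Cotl1, an actin-binding protein, at 77.5 and 8.14 (-3.10) against 10.1 to 12.4 in the other 4. Dhx58, an RNA sensor of the interferon response, was at 33.6 and 1.22 RPKM (-3.96). The inhibitory Fc receptor Fcgr2b was at 24.7 and 0.12 RPKM (-4.52). In all, 35 of the 739 lower loci had the untreated wild type library at least 4-fold above each of the 5 other libraries, and 226 at least 2-fold. Among the 489 higher loci the untreated Tet2 KO library stood that far above the others at 4 loci and 117 loci. The 4 actinomycin D libraries are among those 5, so an RNA that falls under the drug can meet this mark without an odd library. Hist1h4k, a histone gene, met it at 4-fold, with 317 and 38.9 RPKM untreated and 15.6 and 9.50 at 3 h. The part of single libraries in the calls was not tested beyond leaving out the loci at 4-fold, Hist1h4k among them. That left 485 higher and 704 lower.

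**Figure D2:**
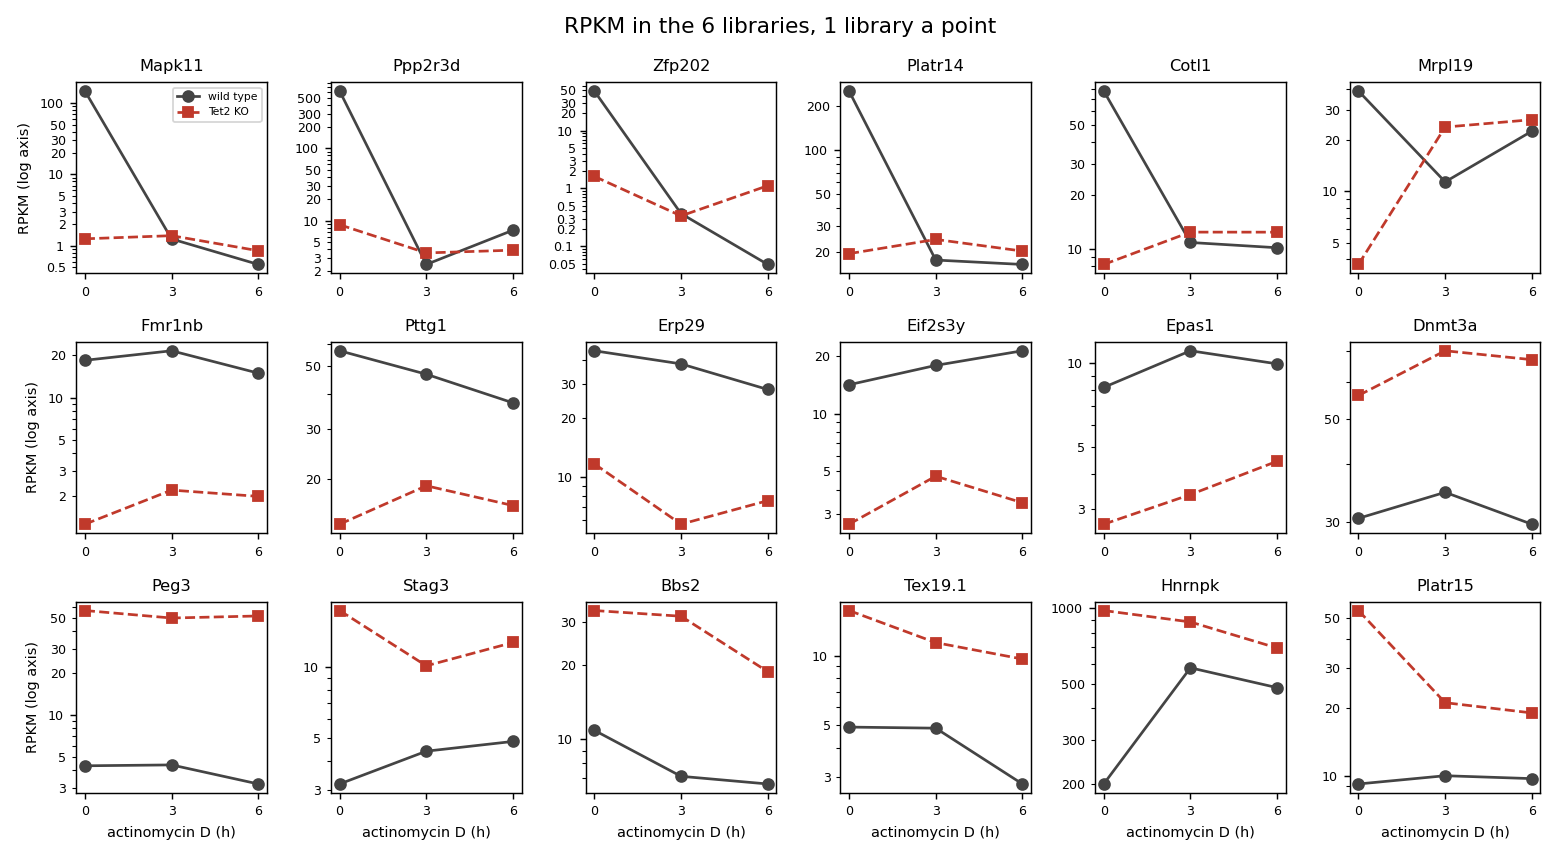
RPKM (log axis, a scale of its own in each panel) of 18 genes in the 6 libraries against hours of actinomycin D, with wild type as black circles and Tet2 KO as red squares. Mapk11, Ppp2r3d, Zfp202, Platr14 and Cotl1 are high in the untreated wild type library alone, whereas Fmr1nb, Pttg1, Peg3 and Bbs2 are apart at every time.

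The 3 h and 6 h pairs of libraries share no library with the untreated pair, although the treatment differs and they are no replicates of it. Of the 489 higher loci, 63.2% were higher by any amount at 3 h, where 47.5% of all kept loci were, and 68.5% at 6 h against 62.4% of all. Of the 739 lower loci, 63.7% were lower at 3 h (52.5% of all) and 61.6% at 6 h (37.6% of all). Calls in those pairs took 4.78% (higher) and 3.7% (lower) of the kept loci at 3 h, and 3.84% and 3.54% at 6 h. At least 2-fold the same way at all 3 times were 27 higher loci (5.52% of those called) and 36 lower loci (4.87%). At 3 h, 28 of the higher and 60 of the lower loci were at least 2-fold the opposite way.

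Of the 27 higher loci at all 3 times, 12 were gene models without a RefSeq match, and several more were pseudogenes. Peg3 and Stag3 were among the protein-coding ones. Among the others were the cilium gene Bbs2 at 10.9 and 33.4 RPKM untreated, the ubiquitin ligase Traip at 1.89 and 7.47, Tex19.1, a germline and stem cell gene that restrains retrotransposons, at 4.92 and 15.6, the DEAD-box gene D1Pas1 at 2.43 and 6.87, Elmo2 at 6.46 and 14.6, and the microtubule-severing enzyme Spast at 4.45 and 10.0 RPKM. Bbs2 was at 7.08 and 31.6 RPKM at 3 h and at 6.59 and 18.9 at 6 h, so the 2 genotypes did not overlap over the 6 libraries. The lower loci at all 3 times also held many pseudogenes and gene models, Rpl34-ps2 at 62.8 and 2.75 RPKM among them. Protein-coding ones were Fmr1nb, an X-linked gene next to Fmr1, at 18.4 and 1.25 RPKM, and Pttg1 at 56.8 and 13.8. Pttg1 is the securin that restrains the separation of sister chromatids until anaphase. Zfp42, a marker of naive pluripotency also called Rex1, was at 120 and 30.6 RPKM, and its pseudogene Zfp42-ps1, with which it could share reads, at 59.4 and 2.77. Erp29, a chaperone of the endoplasmic reticulum, was at 44.5 and 11.6 RPKM, the planar polarity gene Vangl1 at 18.6 and 5.81, and Epas1, the hypoxia-inducible factor also called HIF-2 alpha, at 8.17 and 2.64. Pnma5 on the X chromosome and Ckmt1, a mitochondrial creatine kinase, were lower at all 3 times as well, with untreated levels of 3.96 and 0.18 and of 9.18 and 2.57 RPKM.

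Promoters of the named gene that was highest and of one that was lower at every time are given for their CG content, because CG sites are where DNA methylation, the substrate of Tet2, is placed. Both are RefSeq windows of GRCm38.p6 that run from 250 bases before to 50 bases after the start, written 5′ to 3′ on the strand of the gene, with CG dinucleotides in capitals. The window of Peg3 is chr7:6730370-6730669 on the minus strand and holds 13 CG. That of Fmr1nb is chrX:68761589-68761888 on the plus strand and holds 9.
Peg3: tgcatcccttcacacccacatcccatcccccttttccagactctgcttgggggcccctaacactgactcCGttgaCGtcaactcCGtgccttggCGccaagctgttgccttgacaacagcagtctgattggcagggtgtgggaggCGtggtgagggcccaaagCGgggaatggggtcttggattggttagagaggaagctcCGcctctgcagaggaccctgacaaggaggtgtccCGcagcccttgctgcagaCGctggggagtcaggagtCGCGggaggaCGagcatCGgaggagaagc
Fmr1nb: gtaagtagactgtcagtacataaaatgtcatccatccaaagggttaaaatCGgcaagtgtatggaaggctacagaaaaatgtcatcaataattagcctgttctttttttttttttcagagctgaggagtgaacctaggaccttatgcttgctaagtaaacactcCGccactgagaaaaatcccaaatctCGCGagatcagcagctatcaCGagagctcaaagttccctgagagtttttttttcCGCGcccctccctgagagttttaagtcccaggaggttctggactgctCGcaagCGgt
Of the 7535 kept loci with a promoter in the table, the 234 higher loci had a median of 21 CG, as had the 6901 within 2-fold, and the 400 lower loci a median of 19. Windows with at most 5 CG made up 12.8% of the higher, 10.5% of the lower and 7.74% of the other loci. No methylation of DNA was measured in these files.

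Among the gene families, 82 had at least 5 kept members, and the replication-dependent histone genes were the only one whose median differed by 2-fold. In 37 families more members were higher than lower, and in 43 more were lower. The medians of 75 families lay within 0.25 of 0. Under 9 alternatives planned and 2 added, 38 families kept the sign of their median, and 44 changed it, 26 of them only when Tet2 KO was scaled in that way.

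Replication-dependent histone genes supply new nucleosomes in S phase, and their mRNAs end in a stem-loop in place of a poly(A) tail. Of 33 kept members, 32 were lower in Tet2 KO, 26 of them at least 2-fold, and the median difference was -1.68, which stayed below 0 in every setting. The members' levels ranged from 9.64 to 496 RPKM in wild type, with a median of 89.0, and from 2.86 to 352 in Tet2 KO, with a median of 22.4. All 9 H3, all 8 H2A and all 5 H4 genes were at least 2-fold lower, with medians of -2.17, -1.75 and -2.28. H2B genes differed less, with 4 of 9 at least 2-fold lower and a median of -0.96, and neither of the 2 H1 genes passed 2-fold (median -0.52). Hist1h4k, an H4 gene, was at 317 and 38.9 RPKM, and Hist1h3i, an H3 gene, at 170 and 26.6. Many of these genes are near-identical copies, so the split of reads among them is uncertain. Under actinomycin D their levels were far lower in both genotypes, with medians of 3.13 and 1.85 RPKM at 3 h and 1.32 and 0.93 at 6 h, and 25 and 26 of the 33 were lower in Tet2 KO, 8 and 3 of them at least 2-fold. The 12 histone variant genes, which are made outside S phase and carry poly(A) tails, had a median of -0.10 with 0 called, a sign that turned when Tet2 KO was scaled. H2afy was at 25.4 and 15.6 RPKM and Cenpa, the centromere histone, at 26.8 and 31.3.

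**Figure D3:**
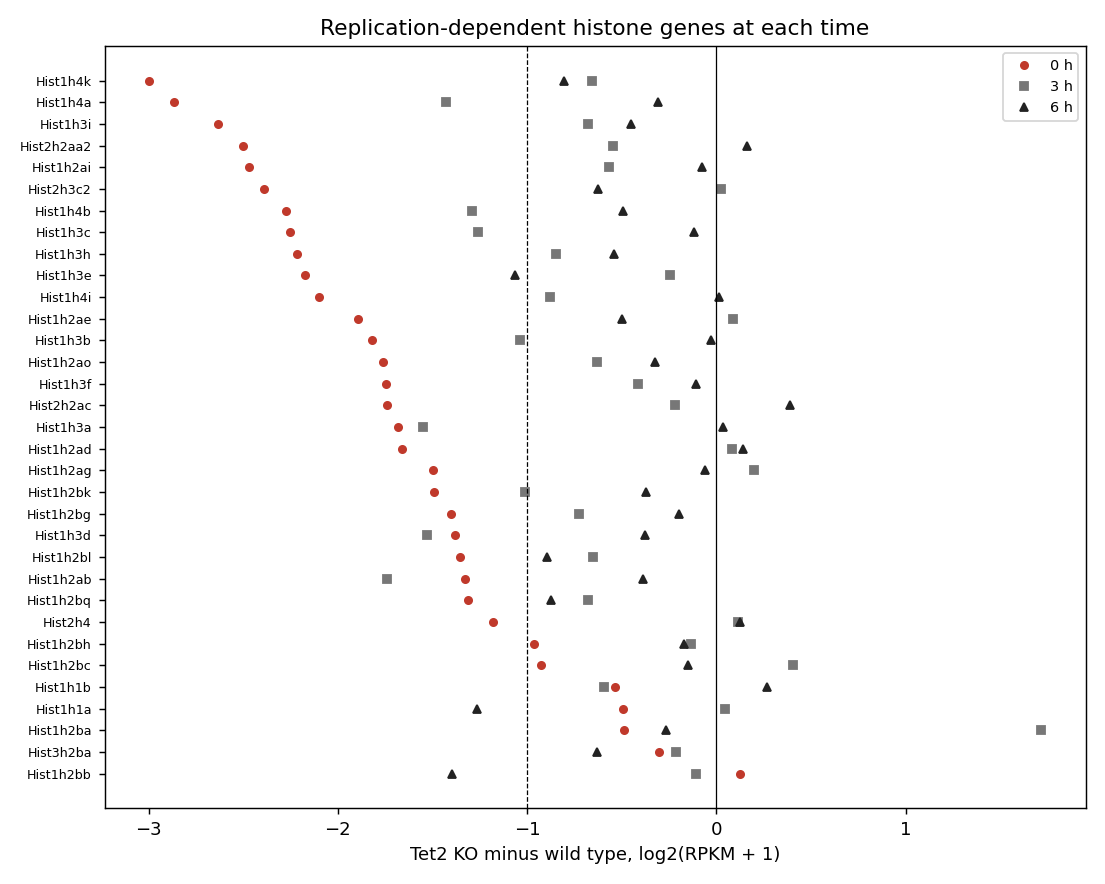
Difference in log2(RPKM + 1), Tet2 KO minus wild type, of 33 replication-dependent histone genes at 0 h (red circles), 3 h (grey squares) and 6 h (black triangles) of actinomycin D. The dashed line marks 2-fold lower, which 26 genes pass at 0 h, 8 at 3 h and 3 at 6 h.

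The promoter of Hist1h3i (RefSeq symbol H3c11) is printed because it holds the 2 promoter words searched. Its window is chr13:21783348-21783647 on the minus strand of GRCm38.p6, with TATAAA and CCAAT in capitals.
Hist1h3i: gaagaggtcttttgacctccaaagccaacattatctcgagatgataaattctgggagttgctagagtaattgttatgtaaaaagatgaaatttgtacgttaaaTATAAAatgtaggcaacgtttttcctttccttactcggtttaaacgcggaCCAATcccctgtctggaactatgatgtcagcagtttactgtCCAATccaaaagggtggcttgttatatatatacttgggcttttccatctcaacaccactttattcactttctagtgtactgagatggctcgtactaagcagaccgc
Read on both strands, TATAAA was in 62.1% and CCAAT in 89.7% of the 29 histone promoters in the table, against 7.09% and 39.8% of the 7535 windows of kept loci. These words do not overlap each other, and a match is a description of letters and not of a bound factor. Among lower loci other than histone genes the shares were 8.49% and 40.3%.

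Small structured RNAs, most of which have no poly(A) tail, were also lower in Tet2 KO. Of 139 snRNA loci, the class of the spliceosomal RNAs with many near-identical copies, 135 were lower and 67 (48.2%) at least 2-fold lower, with a median of -0.99. The snRNA median was nearer to no difference in the actinomycin D pairs, -0.29 at 3 h and -0.29 at 6 h. Over all 227 small structured RNA loci the share that was higher lay between 15.3% and 22.5% in every setting that kept them. The median level of these 227 loci was 228 RPKM in wild type and 111 in Tet2 KO, and that of the snRNA loci 218 and 99.6 RPKM. The 60 snoRNA loci, guides of ribosomal RNA modification, had a median of -0.32, with 15 (25%) at least 2-fold lower and 4 (6.67%) higher. Over all kept loci the shares were 5.89% lower and 3.9% higher. Snora78 was at 6333 and 869 RPKM and Scarna17 at 1300 and 216. The 2 Y RNA loci were higher, by 0.71 and 0.86 on the log2 scale. Small structured RNA loci made up 63.9% of the summed RPKM in wild type and 58.3% in Tet2 KO. The libraries were made from poly(A)-selected RNA, and how much tail-less RNA each selection let through was not measured. The part of that step in the lower histone and snRNA values was not tested.

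**Figure D4:**
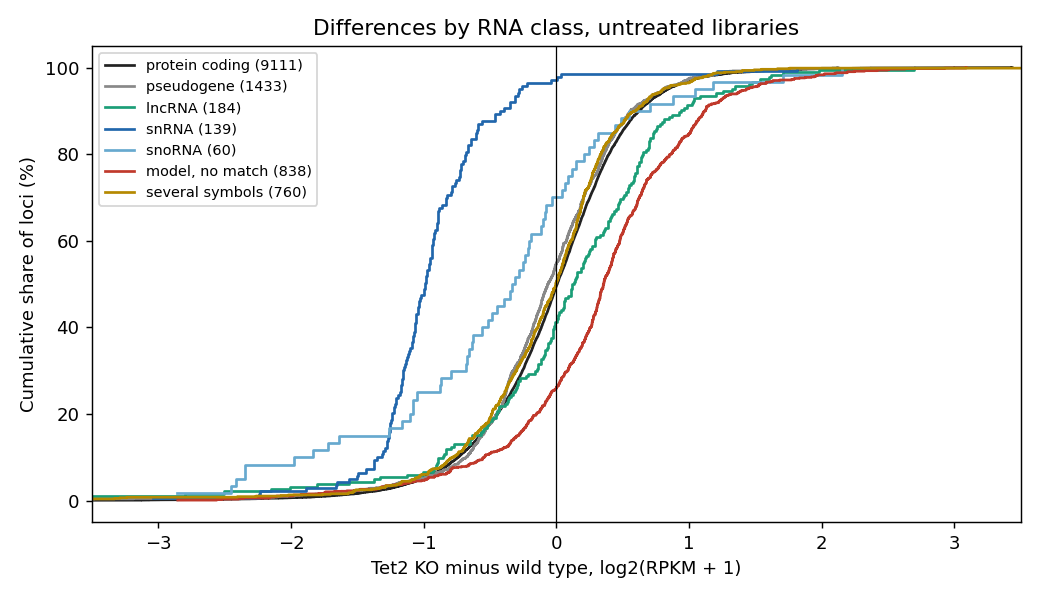
Cumulative share of loci (y, %) against the difference in log2(RPKM + 1), Tet2 KO minus wild type, untreated (x), by RefSeq class with the number of loci. The snRNA curve lies to the left, with a median of -0.99, and the curve of gene models without a RefSeq match to the right, with a median of 0.36.

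Gene models without a RefSeq match went the other way. Of 838 such loci, 74.0% were higher in Tet2 KO and 128 (15.3%) at least 2-fold higher, with a median of 0.36, while 39 (4.65%) were at least 2-fold lower. Of these 128, 12 were at least 2-fold higher at both later times as well. The median of the 838 loci was 0.03 at 3 h and 0.14 at 6 h, close to the -0.03 and 0.13 of all kept loci. The 184 long noncoding RNAs had a median of 0.12, with 16 higher (8.7%) and 12 lower (6.52%) calls. Over all kept loci the shares were 3.9% higher and 5.89% lower, so the share of lower calls was near that of all. In the list of small nucleolar host genes and named noncoding RNAs, 11 of 17 were higher, and the median was 0.54. At least 2-fold higher were 5 (29.4%), against 1 lower (5.88%). Platr genes, transcripts named for their link to pluripotency, moved in both directions. Platr15 was at 9.22 and 53.7 RPKM, Platr22 at 1.03 and 12.1, Platr3 at 3.39 and 11.2, and Lncenc1, a noncoding RNA of naive stem cells, at 22.1 and 54.2, whereas Platr14 was at 254 and 19.5. Platr14 was between 16.5 and 24.4 RPKM in the other 4 libraries, so the untreated wild type value stood alone.

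Genes of stem cell identity were near their wild type levels as a group. Of 36 core and naive pluripotency genes, 19 were higher and 17 lower, with a median of 0.01, and Zfp42 and Tex19.1 were the 2 called. Gbx2, a homeobox factor of the naive state, was at 9.84 and 20.5 RPKM (0.98), and Nr0b1, a partner of Pou5f1, at 27.3 and 14.3 (-0.88). The 14 LIF and STAT3 response genes had a median of -0.31 with 9 lower, and this untreated median was below 0 in every setting. Their median was -0.07 at 3 h and 0.21 at 6 h. Stat3, the transducer of the LIF signal, was at 28 and 11.8 RPKM (-1.18) and Junb, one of its early targets, at 7.87 and 2.54 (-1.32). At 3 h Stat3 was higher in Tet2 KO, at 27.3 and 36.7 RPKM. Formative and primed genes were split 9 to 9, with Tcf15, a factor of the exit from the naive state, at 47.3 and 12.6 RPKM and Dnmt3a, a de novo DNA methyltransferase, at 30.5 and 56.2 (0.86). Dnmt3a was higher at 3 h and 6 h too, by 0.99 and 1.15. All 15 endoderm and basement membrane genes were lower, with a median of -0.28 and 0 past 2-fold. Col4a1, a collagen of the basement membrane, was at 17.8 and 9.99 RPKM and the endoderm factor Gata6 at 1.89 and 0.56. Several of these matrix genes are also made by fibroblasts, whose 42 listed markers had a median of -0.08, a sign that turned when Tet2 KO was scaled.

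Imprinted and germline genes differed in both directions. Paternally expressed genes had 10 of 18 higher (median 0.06), with Peg3 far above and Mest, a hydrolase, at 10.9 and 24.1 RPKM, while Dlk1, a Notch-like ligand, was at 4.65 and 0.55 and Sgce, a sarcoglycan, at 6.63 and 2.26. Maternally expressed genes had 9 of 15 higher (median 0.05), with the cell cycle inhibitor Cdkn1c at 4.06 and 13 RPKM and Phlda2, which restrains placental growth, at 21.1 and 42.3. The maternally expressed noncoding RNAs of the Dlk1 region, counted in loci of several symbols, were lower, Meg3 at 28.5 and 10.7 RPKM and Rian at 108 and 36.9. H19 was at 14.7 and 15.3 RPKM. Of 24 germline genes that DNA methylation represses, 14 were higher, 3 of the 24 (12.5%) at least 2-fold, and 2 (8.33%) were at least 2-fold lower, beside 3.9% and 5.89% of all kept loci. The higher ones were Stag3, Ddx4, a germ cell helicase, at 4.0 and 11 RPKM, and Tdrd12, a factor of piRNA formation, at 7.55 and 17.3. The lower ones were Stra8, the meiotic inducer, at 4.67 and 1.69 RPKM, and Rpl39l, a ribosomal protein of the testis, at 5.74 and 2.29.

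Genes that write or erase DNA and RNA methylation differed little as groups. Dnmt1, the maintenance methyltransferase, was at 39.3 and 37.7 RPKM. Mbd3, a subunit of the NuRD complex, was at 83.5 and 24.4 RPKM (-1.74), but at 33.1 and 41.0 at 3 h and 27.3 and 38.9 at 6 h. Among base excision genes Neil2, a DNA glycosylase, was at 10.3 and 1.30 RPKM (-2.30) and was lower at 3 h by 1.61 as well, and Tdg, the glycosylase that removes the products of Tet oxidation, was at 17 and 29.3 (0.75). The 9 m5C genes had a median of 0.11 and 0 calls, with Nsun2, the main m5C writer of mRNA, at 75.8 and 88.6 RPKM and Trdmt1, a tRNA methyltransferase, at 1.73 and 3.29. Polycomb genes were higher in 21 of 27 cases (median 0.12), and Rbbp4, a histone chaperone shared by several chromatin complexes, was at 59.6 and 179 RPKM (1.57), while Bmi1, a subunit of a Polycomb complex that marks histone H2A, was at 3.17 and 0.99 (-1.06).

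Families of the gene expression machinery differed by less than 2-fold in their medians. Of 54 ribosomal protein genes 43 were lower, with a median of -0.19 that was above 0 with quantile normalization and when Tet2 KO was scaled to these genes. Their summed level was 34121 RPKM in wild type and 27759 in Tet2 KO. Rplp1, a stalk protein of the ribosome, was at 1309 and 366 RPKM, Rpl36 at 659 and 200 and Rps18 at 421 and 187. At 3 h Rps18 was at 294 and 286 RPKM. Oxidative phosphorylation subunits were lower in 55 of 83 cases (median -0.08, above 0 when scaled), with Atp5d at 116 and 48.8 RPKM and Ndufs3, a subunit of complex I, at 36.1 and 82.6. Ribosome assembly genes were higher in 45 of 65 (median 0.14), with Utp14a at 14.5 and 44.0 RPKM and higher at 3 h and 6 h by 0.94 and 1.31. Splicing genes were higher in 81 of 129 (median 0.12), RNA decay genes in 40 of 56 (median 0.17), and heat shock proteins and chaperonins in 51 of 72 (median 0.17). Zfp zinc finger genes, many of which silence retrotransposons, were higher in 155 of 238 (median 0.18). They had 5 calls each way (2.1%), below the 3.9% higher and 5.89% lower of all kept loci. DNA repair genes were higher in 48 of 71 (median 0.21). For these last 6 families the median stayed above 0 in every setting, and over all kept loci 50.9% were higher. At 3 h the heat shock median was -0.07, and the Zfp and DNA repair medians were both -0.04.

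**Figure D5:**
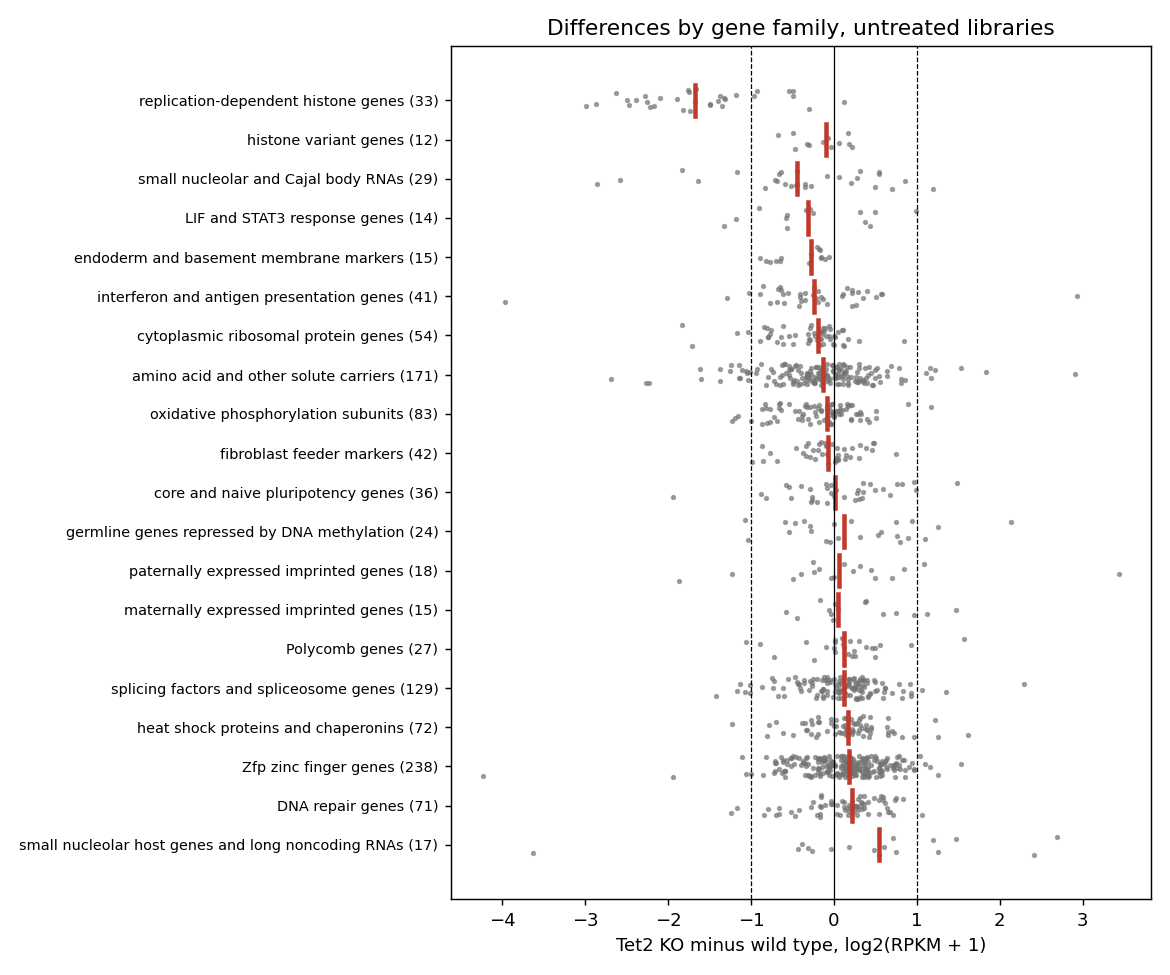
Difference in log2(RPKM + 1), Tet2 KO minus wild type, untreated, of every kept member (grey points) of 20 gene families, with the number of members in brackets and the family median as a red bar. Replication-dependent histone genes, with a median of -1.68, lie past the dashed 2-fold line, and the other medians lie between -0.45 and 0.54.

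Among transport, signalling and stress families the calls are set beside the shares over all kept loci, 3.9% higher and 5.89% lower. Of 171 solute carriers, the transporters of amino acids, sugars and ions, 101 were lower, 17 of them (9.94%) at least 2-fold against 7 (4.09%) higher, and the median was -0.13, above 0 when scaled. Slc5a11 was at 26.3 and 3.23 RPKM (-2.69), and it was lower at 3 h and 6 h as well, by 0.97 and 1.20. Slc35a4 was at 50.3 and 9.70 RPKM (-2.26), but at 9.86 and 56 at 3 h. Slc11a2, an iron transporter, was at 18.8 and 3.23 RPKM (-2.23), and at 3.02 and 14.1 at 3 h. FGF and ERK pathway genes had 0 higher and 6 lower calls (13%) among 46, with the kinase Map2k2 at 36.4 and 8.98 RPKM and the ligand Fgf17 at 4.95 and 1.19, although their median was 0.01, below 0 with median centring and quantile normalization. Among 38 TGF-beta, Nodal and BMP genes, Bmp4 and Smad1, the transducer of BMP signals (2.35 and 5.94 RPKM), were higher, while Ltbp4, a binding protein of latent TGF-beta, was at 33.9 and 10.4, the activin subunit Inhbb at 8.72 and 3.05, and Id3, a BMP target, at 11.4 and 5.09. Interferon and antigen presentation genes were lower in 27 of 41 (median -0.24, above 0 when scaled) with 3 lower calls (7.32%), a share near that of all loci, and 1 higher, with Gbp3 at 5.01 and 1.46 RPKM and Ifi44 at 7.86 and 3.36. Apoe, a lipid carrier, was at 244 and 118 RPKM. Hypoxia response genes, 22 in number, had a median of -0.25, above 0 when scaled, and 2 lower calls (9.09%), Epas1 and Adm (8.09 and 2.93 RPKM). Sterol synthesis genes split 11 to 10.

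Of the 5 kept protein-coding loci on the Y chromosome, 3 were lower and 2 higher in untreated Tet2 KO, and the larger upward log2 difference was 0.30. Eif2s3y, the Y-linked translation factor, was at 14.1 and 2.65 RPKM, Uty, a demethylase homologue, at 3.43 and 0.78, and Ddx3y, a helicase, at 3.66 and 1.5. These were the 3 lower genes, and their summed level was 21.2 RPKM in wild type and 4.93 in Tet2 KO, 26.9 and 7.35 at 3 h, and 26.9 and 5.57 at 6 h. Xist, the RNA of the inactive X chromosome, counted in a locus of 3 symbols, was at 1.30 and 1.13 RPKM. The 315 protein-coding loci of the X chromosome had a median of 0.10 with 2.86% called each way.

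Some lower loci lay side by side on the chromosome. Of 654 lower loci with a position, 92 (14.1%) had a lower locus as the next kept one on either side. Of all positioned loci, 5.97% were lower, a share per locus and not the rate for a neighbour on either side. That rate was not computed, so the shares given here do not show whether called loci cluster. Pairs of histone genes made up 19 of the 53 adjacent lower pairs. Without histone genes the share was 10.7% of 628 loci, and 5.75% of all other positioned loci were lower. Mmab and Mvk, enzymes of cobalamin and sterol metabolism whose genes are 191 bases apart, were at 3.98 and 1.30 and at 13.7 and 5.73 RPKM. Pkp3, a plakophilin, and its neighbour Sigirr, a restraint on interleukin signalling, were at 13.4 and 1.71 and at 10.8 and 3.70 RPKM. Dcxr and Cbr2, related reductases, were at 12.3 and 4.35 and at 10.6 and 1.35 RPKM. Of 334 higher loci with a position, 20 (5.99%) had a higher locus beside them on either side, and 3.05% of all positioned loci were higher. These 20 loci formed 10 pairs, Camkv and Traip among them, with Camkv at 1.16 and 4.68 RPKM. These pairs were chosen after their values were seen, and reads shared between overlapping or adjacent genes were not examined.

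The bisulfite tables, which list m5C sites by level with 2 replicates per genotype, allow a look at whether called loci carried RNA methylation. At least 1 listed site fell in 32.6% of the 334 higher loci with a position, 24.3% of the 654 lower loci and 34.3% of the 9967 within 2-fold. Sites were placed by position within the bounds of a locus and not by strand, so some may belong to RNA of the opposite strand. The site listed in Stag3, a gene of the plus strand, was on the minus strand. Sites in higher loci numbered 94 in wild type and 106 in Tet2 KO, 23 of them listed in both, and those in lower loci 126 and 129, with 34 in both. Hnrnpk had 4 sites listed in Tet2 KO, all on chromosome 13, with mean levels of 0.118, 0.149, 0.156 and 0.18, and 0 in wild type, where its RNA was lower. The tables list no site under a level of 0.1 and give no coverage, so a site not listed may be below that level or not covered, and these cannot be told apart.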

How the data were processed

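RNA sequencing of untreated wild type and Tet2 KO cells gave 1 library each, taken from a table of RPKM per locus that the authors deposited, with the unit per the file headers (that of wild type 0 h lacks its first letter). RNA was poly(A) selected, depleted of ribosomal RNA and made into stranded libraries, per the labels' protocols. Bowtie2, Cufflinks, DESeq2, MACS2 and Trimmomatic and the builds mm10 and GRCm38 are named, per the submitters' processing notes, and their versions, roles, strand use and handling of multiply mapped reads are not stated in those sources. The m5C site tables hold the level as a fraction, as deposited by the authors.

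Differences were computed as log2(RPKM + 1), with a pseudocount of 1, in Python 3.11.15 with pandas 2.3.3. The calling step was run on simulated data with far less noise than the real differences, whose SD was 0.65. That run checks the code and does not bear on how many calls are due to noise. No significance test between the genotypes was run, since each group has 1 library. Read numbers are unknown: low RPKM values gave Tet2 KO over wild type depth ratios of 0.578, 0.771, 1.16 and 0.386 with similar support, from 12.8%, 11.2%, 10.8% and 10.5% of 697 low loci. Of 12553 kept loci, 760 carry several symbols. RefSeq GRCm38.p6 classes were matched by symbol for 10803 and by synonym for 152.

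The members, families and alternatives were chosen with earlier results of these data known. Family patterns were corrected for wrongly matched symbols after values were seen, and pseudogenes were left out. Named genes were Tet2, fixed identity genes, the 20 largest differences each way and up to 5 per family. Genes 2-fold apart at all 3 times, neighbour pairs and loci of several symbols were chosen after their values were seen. Sox2 and Tet1 were not analysed here. Some single-gene results are not reported here.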

Additional observations from a re-analysis of the deposited data

Results flagged for a closer look

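Some genes among the 20 largest untreated differences each way were at least 2-fold the opposite way in a pair of actinomycin D libraries. With 1 library a group, the difference between times was not tested. H2-T3 was higher untreated (2.93) and lower by 1.45 at 3 h (log2 difference -1.45), from 4.6 RPKM in wild type and 1.05 in Tet2 KO. Mapk8ip2, a kinase scaffold, was higher untreated (2.52) and at -1.16 at 6 h, from 2.10 and 0.39 RPKM. Zfp202 was lower untreated (-4.24) and at 1.01 at 6 h, from 0.05 and 1.11 RPKM. Mrpl19, a mitochondrial ribosomal protein, was lower untreated (-3.07) and at 1.01 at 3 h, from 11.4 and 23.9 RPKM.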

How the results depend on the processing

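Without a pseudocount 954 loci were higher and 1233 lower, and with a pseudocount of 0.1 RPKM 882 and 1161. When Tet2 KO was scaled on ribosomal proteins and respiratory chain subunits, 926 were higher and 459 lower, the median was 0.25, 74 families had more members higher than lower, and 65.1% of lower loci were also lower at 6 h; the cause of this shift is the factor itself. With protein-coding loci only, an alternative added after seeing the data, 273 (3%) were higher and 480 (5.27%) lower. Fewer loci were counted, and these shares were also below the 3.9% and 5.89% of all kept loci. In that setting 57.5% of higher loci were also higher at 3 h, 59.6% of lower loci also lower at 3 h and 55.8% at 6 h. Of the higher loci, 73.3% were also higher at 6 h with at least 5 RPKM in either library and 73.0% with at least 1 RPKM in both. The cause was not tested for these. Median centring, quantile normalization, no filter, single symbols and leaving out loci high in 1 library kept each count within 1.5 times. Of 239 named genes past 2-fold, 52 fell under it in some setting and 0 changed sign. No paired analysis was possible because each group has 1 library, which also leaves no replicate to leave out. The depth of the libraries is unknown, so the precision of low RPKM values is too.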

Other observations

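Of the loci of several symbols, 45 include a recognised small RNA gene, and the SD of their untreated differences was 1.70. It was 0.69 over the 715 others and 0.64 over loci of 1 symbol. Only 2 of the 45 (4.44%) were at least 4-fold apart, so the larger SD rests on few loci. The locus of 1810032O08Rik with Snord1a, Snord1b and Snord1c was at 10.7 RPKM in wild type and 7291 in Tet2 KO, the widest difference in the table. That of Snora5c with Tbrg4 was at 2212 and 70.1 RPKM. Among the 715 others, 9 (1.26%) were at least 4-fold apart, Ep400 with Gm26079 at 1486 and 7.58 RPKM being one. The locus of Taf1d with Mir7650, at 12596 and 159 RPKM, was another. MicroRNAs and gene models without a RefSeq match did not count as recognised, so the split may miss some small RNA genes. Among protein-coding loci of 1 symbol, a RefSeq small RNA gene lay within the bounds of 3.83% of all 9111 and of 0 of the 61 that were at least 4-fold lower.

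Pinx1, an inhibitor of telomerase, and Ndrg2 were at nearly equal levels in all 6 libraries, with 6.68 and 6.54 RPKM in untreated wild type and 39.1 and 37.4 in untreated Tet2 KO. Loci whose mean level over the 2 libraries, taken on the log scale, was at least 100 RPKM held 13.5% lower calls. The bins below held 4.38% to 6%. Histone and small structured RNA loci, some of them at such levels, were not taken out of that bin.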
